A study of Mus musculus with 24 samples.

Results

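Chemokines and chemokine receptors of the kidney were examined through 9 genes: the ligands Cxcl12, Cx3cl1, Cxcl16, Cxcl10, Ccl2, Ccl5 and Cxcl1, and the receptors Ccr2 and Cx3cr1. They were taken by gene symbol from the 55487 rows of the deposited table, and each symbol had 1 row. RNA came from the kidneys of 24 males of an Alport model on the X chromosome, in which Col4a5, a type IV collagen chain of the glomerular basement membrane, is defective. All mice were on the B6 background and 15 weeks old, and all carried the Alport disease, so there was no group without it. They differed in Nbl1, whose secreted product binds and blocks bone morphogenetic proteins: 13 were labelled heterozygous (HET) and 11 wild type (WT). Batch 1, as labelled, held 6 HET and 6 WT mice, and batch 2 held 7 HET and 5 WT mice.

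Chemokines are small secreted or membrane-bound proteins that draw leukocytes towards their source through G protein-coupled receptors. Some, such as Cxcl12, are made constantly by stromal and endothelial cells, while others, such as Ccl2, Cxcl1 and Cxcl10, are induced in tubular and other resident cells by inflammatory signals. In the kidney, Ccr2 and Cx3cr1 are known chiefly as receptors of monocytes and macrophages.

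The promoters of Cxcl10 and Cxcl1 are shown because their RNA varied together between mice and with genes of the NF-kappaB response, though the latter call for Cxcl1 was lost when any of 3 single libraries was left out (correlations follow the levels). Both are the 250 bases before the RefSeq start on GRCm38.p6, with matches to the NF-kappaB consensus in capitals, and in Cxcl10 also a match to the interferon-stimulated response element, searched as GAAA, any 2 bases and GAAA again. The Cxcl10 window is chr5:92348890-92349139 on the minus strand, and the Cxcl1 window is chr5:90890995-90891244 on the plus strand.
Cxcl10: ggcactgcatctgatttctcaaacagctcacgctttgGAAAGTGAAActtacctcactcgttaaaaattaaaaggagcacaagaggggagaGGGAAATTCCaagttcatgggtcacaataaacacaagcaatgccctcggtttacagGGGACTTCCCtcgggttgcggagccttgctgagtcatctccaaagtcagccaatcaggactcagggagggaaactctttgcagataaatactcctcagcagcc
Cxcl1: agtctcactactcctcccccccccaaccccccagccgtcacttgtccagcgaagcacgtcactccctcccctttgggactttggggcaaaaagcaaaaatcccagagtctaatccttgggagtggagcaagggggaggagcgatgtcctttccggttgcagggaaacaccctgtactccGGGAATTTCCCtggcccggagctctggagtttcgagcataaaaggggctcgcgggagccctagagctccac

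With the base before the start as -1, the interferon element of Cxcl10 began at -213 and its NF-kappaB matches at -159 and -103. The capitals in Cxcl1 are 2 NF-kappaB matches on opposite strands that overlap, from -71 to -61. Of 32851 promoters with a window of 250 bases, 3.90% held the NF-kappaB match and 2.98% the interferon element, with both strands searched. Promoters were found for 6 of the 9 genes, not for Ccl2, Ccl5 or Cxcl16, and those of Cxcl12, Cx3cl1, Ccr2 and Cx3cr1 held neither match. Yet Cx3cl1 and Cx3cr1 were also among the 5 genes called with the NF-kappaB response, and Ccl2 had the highest r with it. Calls with that response were thus not confined to genes with a match. Cx3cl1 and Cx3cr1 were each called with Cxcl10 too, though each call was lost with some single library left out. Co-variation thus did not set the 2 promoters shown apart from theirs. A match is a run of letters and shows no binding.

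Libraries of batch 1 summed to between 29551337 and 33019871 counts, and those of batch 2 to between 36380374 and 50746652. Kidney identity was plain in every library: the proximal tubule gene Lrp2 stood at 227 to 419 TPM (transcripts scaled to gene length and library) and the endothelial gene Pecam1 at 10.2 to 36.3. In 21 libraries Nbl1 stood at 3.86 to 4.89 CPM (counts scaled to library size) in HET and 6.996 to 7.78 in WT of batch 1, and at 4.22 to 7.82 in HET and 6.999 to 15.1 in WT of batch 2, so that the ranges met only in batch 2. The other 3 libraries did not fall with their labelled genotype in Nbl1, nor in Htr6, the gene beside it, which held 8 to 49 counts in the remaining HET libraries and 0 to 2 in the remaining WT libraries. The library labelled HET replicate 6 held 9.24 CPM of Nbl1 and no Htr6 read, a level below about 3 counts. The libraries labelled WT replicate 1 and WT replicate 2 held 5.41 and 3.62 CPM of Nbl1 with 26 and 14 Htr6 counts. Groups below are as labelled, and results that rest on genotype were also computed without these 3 libraries. The factor that scales libraries for RNA composition (TMM) was 1.02 to 1.09 in batch 1. It was 0.820 to 1.05 in batch 2.

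Cxcl12, the constitutive stromal ligand of Cxcr4, was the most abundant of the 9 genes per transcript length in all 24 libraries. Cx3cl1 ranked 2 and Cxcl16 ranked 3 in every library. Within a library, the TPM of Cxcl12 was 1.17 to 2.10 times that of Cx3cl1, which was in turn 1.22 to 2.17 times that of Cxcl16. Cxcl16 stood 2.23 to 6.57 times above Cxcl10, which ranked 4 to 6. The order below was not fixed: Cxcl10 was above Ccr2 in 22 of 24 libraries, Ccr2 above Ccl5 in 16, Ccl5 above Cx3cr1 in 16, Cx3cr1 above Ccl2 in 14 and Ccl2 above Cxcl1 in 18. Levels were compared per length only within a library, because a few abundant RNAs took unequal shares of the TPM. In batch 1 Rn7s1 alone took 200337 to 219726 TPM, and in batch 2 the leading gene, CT010467.1 or mt-Atp8, took 43681 to 149452.

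Values between mice are given as TMM-normalised CPM. Cxcl12 (ENSMUSG00000061353, chromosome 6, 117168535 to 117181367, plus strand, GRCm38) guides and retains progenitor cells and leukocytes. In batch 1 Cxcl12 ran from 104 to 141 CPM in HET, with a median of 122, and from 84.2 to 141 in WT, with a median of 110.3. In batch 2 Cxcl12 ran from 112 to 157 CPM in HET, with a median of 148, and stood at 164, 139.5, 139.8, 162 and 140.2 in WT replicates 7 to 11. The genotypes overlapped in each batch, and the lowest library was WT replicate 3 of batch 1. HET replicate 9, at 112, lay apart below the other HET libraries of batch 2.

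Cx3cl1 (ENSMUSG00000031778, chromosome 8, 94772009 to 94782427, plus strand) encodes fractalkine, a chemokine that can stay anchored in the membrane and binds Cx3cr1. In batch 1 Cx3cl1 ran from 94.1 to 119.6 CPM in HET, with a median of 104, and from 89.2 to 114 in WT, with a median of 96.6. In batch 2 Cx3cl1 ran from 119.6 to 169.6 CPM in HET, with a median of 142, and stood at 125, 145, 139, 141 and 122 in WT replicates 7 to 11. The genotypes overlapped, whereas the batches met without overlap, with 119.566 CPM as the highest value of batch 1 and 119.567 as the lowest of batch 2.

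Cxcl16 (ENSMUSG00000018920, chromosome 11, 70453983 to 70459984, minus strand) encodes a transmembrane chemokine that binds Cxcr6 and also takes up oxidised lipoprotein. In batch 1 Cxcl16 ran from 35.2 to 44.8 CPM in HET, with a median of 36.7, and from 33.6 to 40.9 in WT, with a median of 38.4. In batch 2 Cxcl16 ran from 38.7 to 55.6 CPM in HET, with a median of 46.3, and stood at 43.3, 52.0, 51.04, 50.4 and 38.8 in WT replicates 7 to 11. The genotypes overlapped in each batch, and HET replicate 1, at 44.8, was apart from the other 5 HET libraries of batch 1. Exons of Cxcl16 overlap those of Zmynd15 on the opposite strand, as those of Cxcl10 overlap Art3 and those of Cx3cr1 overlap Gm33858. Whether counting used strand is not stated in the sources at hand, so reads of such a pair cannot be told apart.

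Cxcl10 (ENSMUSG00000034855, chromosome 5, 92346638 to 92348889, minus strand) encodes an interferon-induced ligand of Cxcr3, which draws activated T cells and NK cells. In batch 1 Cxcl10 ran from 3.05 to 8.40 CPM in HET, with a median of 6.55, and from 4.04 to 8.61 in WT, with a median of 4.87. In batch 2 Cxcl10 ran from 5.16 to 8.23 CPM in HET, with a median of 6.44, and stood at 4.88, 10.4, 10.2, 6.87 and 5.36 in WT replicates 7 to 11. The WT mice of batch 2 enclosed the HET mice: their lowest was under and their highest over all 7.

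Ccl2 (ENSMUSG00000035385, chromosome 11, 82035571 to 82037453, plus strand) encodes the main ligand of Ccr2 and draws monocytes. In batch 1 Ccl2 ran from 1.37 to 2.87 CPM in HET, with a median of 1.73, and from 1.195 to 2.41 in WT, with a median of 1.43. In batch 2 Ccl2 ran from 1.04 to 3.27 CPM in HET, with a median of 1.87, and stood at 1.14, 2.72, 2.71, 2.50 and 1.55 in WT replicates 7 to 11. The genotypes overlapped across nearly their whole ranges. These values rest on 31 to 141 counts per library.

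Ccl5 (ENSMUSG00000035042, chromosome 11, 83525778 to 83530518, minus strand) encodes a product of activated T and NK cells that binds Ccr1, among other receptors. In batch 1 Ccl5 ran from 0.713 to 1.79 CPM in HET, with a median of 1.21, and from 0.806 to 2.48 in WT, with a median of 1.27. In batch 2 Ccl5 ran from 0.590 to 1.81 CPM in HET, with a median of 1.10, and stood at 0.874, 1.46, 1.23, 1.73 and 1.12 in WT replicates 7 to 11. The genotypes overlapped, and Ccl5 had the fewest counts of the 9 genes, 20 to 75 per library.

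Cxcl1 (ENSMUSG00000029380, chromosome 5, 90891241 to 90893115, plus strand) encodes a neutrophil attractant that binds Cxcr2. In batch 1 Cxcl1 ran from 1.62 to 4.83 CPM in HET, with a median of 2.10, and from 1.62 to 8.35 in WT, with a median of 2.00. In batch 2 Cxcl1 ran from 1.09 to 3.34 CPM in HET, with a median of 1.77, and stood at 0.971, 2.90, 2.27, 1.80 and 1.98 in WT replicates 7 to 11. The genotypes overlapped, and 3 mice of batch 1 stood above all others: WT replicate 5 at 8.35, HET replicate 5 at 4.83 and HET replicate 4 at 4.72.

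Ccr2 (ENSMUSG00000049103, chromosome 9, 124101950 to 124113557, plus strand) marks monocytes that enter tissue from blood. In batch 1 Ccr2 ran from 10.8 to 19.4 CPM in HET, with a median of 12.96, and from 10.6 to 18.1 in WT, with a median of 12.8. In batch 2 Ccr2 ran from 8.14 to 22.2 CPM in HET, with a median of 12.97, and stood at 14.7, 16.4, 22.0001, 18.7 and 11.4 in WT replicates 7 to 11. The genotypes overlapped, and HET mice of batch 2 held both the lowest and the highest value of all 24.

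Cx3cr1 (ENSMUSG00000052336, chromosome 9, 119901616 to 120069879, minus strand) marks resident macrophages and patrolling monocytes. In batch 1 Cx3cr1 ran from 6.31 to 12.4 CPM in HET, with a median of 9.29, and from 7.61 to 10.95 in WT, with a median of 9.82. In batch 2 Cx3cr1 ran from 5.54 to 17.1 CPM in HET, with a median of 10.5, and stood at 10.99, 14.3, 15.8, 14.4 and 9.33 in WT replicates 7 to 11. As for Ccr2, the genotypes overlapped and HET mice of batch 2 spanned all values of the 24. Counts of Ccr2 and Cx3cr1 had fractional parts in most libraries, so reads shared with other genes may be counted in part.

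**Figure D1:**
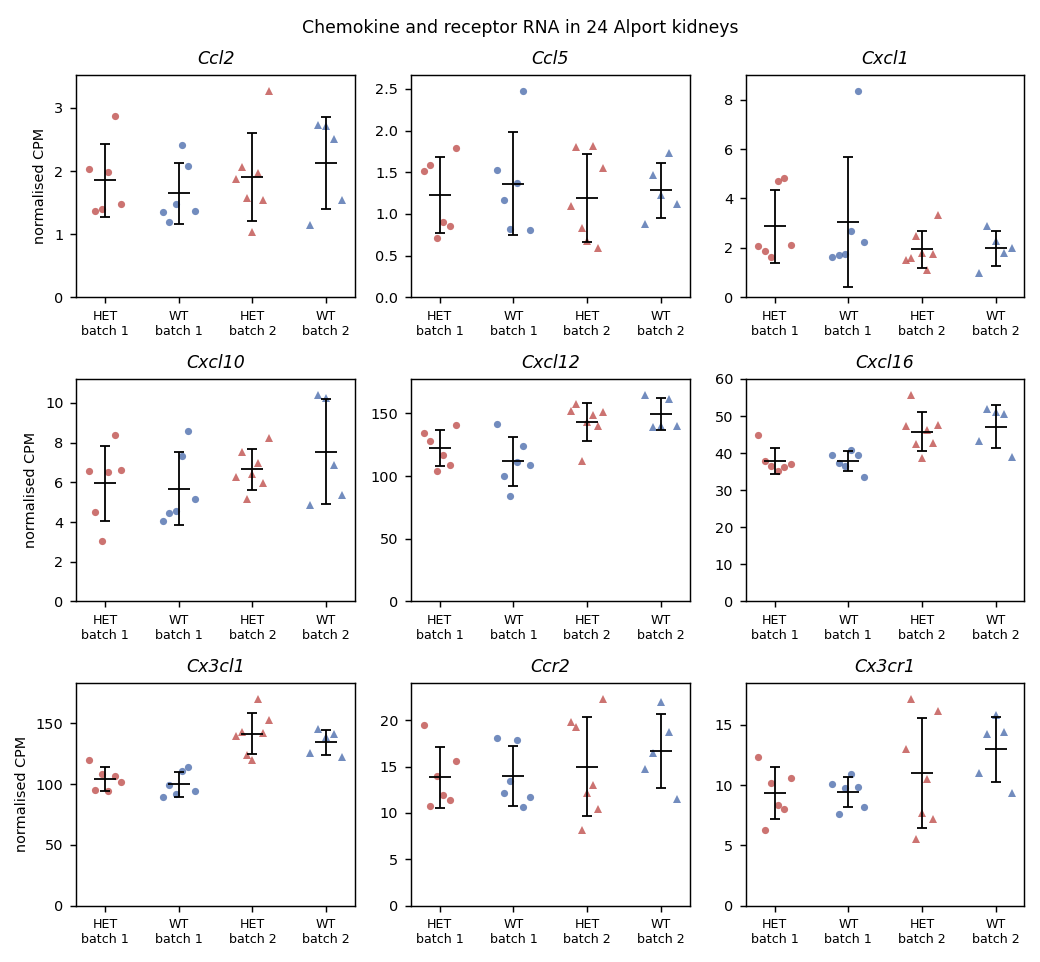
TMM-normalised CPM (y axis, from 0) of the 9 genes in the 4 groups of genotype and batch (x axis). Each point is 1 mouse, circles for batch 1 and triangles for batch 2, and bars show the mean with 1 SD. Genotypes overlap in every panel, Cx3cl1 is higher in batch 2 than in batch 1, and WT replicate 5 stands apart for Cxcl1 at 8.35.

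The ligands that were most abundant per length varied least between mice of the same batch and genotype. The residual SD of log2 CPM, after batch and genotype, was 0.14 for Cx3cl1, 0.15 for Cxcl16 and 0.19 for Cxcl12, near the median of 0.16 over all 18339 genes tested. It was 0.40 for Ccr2, 0.42 for Cx3cr1, 0.42 for Cxcl10, 0.46 for Ccl2, 0.55 for Ccl5 and 0.67 for Cxcl1. Cxcl1 was thus more variable than 97.2% of the genes tested and Ccr2 than 82.3%. By mean CPM, Cxcl1 stood at percentile 28.2 of the genes tested and Ccr2 at 55.0. The part of level in this ranking was not tested.

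The comparison of HET with WT asks whether loss of an Nbl1 allele goes with a change of chemokine RNA in the Alport kidney. None of the 9 genes was called higher or lower. In edgeR's quasi-likelihood test over all 24 mice, with batch as a covariate, 0 of 9 passed an adjusted p of 0.05 and 0 had an unadjusted p under 0.05. The background was 0% of 18339 genes called and 4.12% at an unadjusted p under 0.05, and DESeq2 also called 0 of the 9. The log2 fold change was above 0 for 3 genes and below 0 for 6, with a median of -0.06 against 0.01 over all genes tested. In bulk kidney RNA, fewer cells of a type and less RNA per cell cannot be told apart.

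The intervals were narrow for the abundant ligands Cxcl16, Cxcl12 and Cx3cl1 and wider for the other genes, receptors included. The HET level was 0.987 times the WT level for Cxcl16 (95% interval 0.913 to 1.07), 1.03 times for Cxcl12 (0.924 to 1.14) and 1.05 times for Cx3cl1 (0.970 to 1.13). For the other ligands it was 0.958 times for Cxcl10 (0.758 to 1.21), 1.00 times for Ccl2 (0.781 to 1.29), 0.921 times for Ccl5 (0.684 to 1.24) and 0.961 times for Cxcl1 (0.640 to 1.44). For the receptors it was 0.945 times for Ccr2 (0.751 to 1.19) and 0.916 times for Cx3cr1 (0.725 to 1.16). The intervals of Cxcl16, Cxcl12 and Cx3cl1 thus lay between 0.913 and 1.14, while that of Cxcl1 ran from 0.640 to 1.44. Cxcl1 depended on WT replicate 5, without which its log2 fold change went from -0.06 to 0.23 (adjusted p = 0.948, edgeR). An exact permutation of genotype within batch, over 731808 rearrangements, gave two-sided p-values from 0.274 for Cx3cl1 to 0.961 for Ccl2.

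Within batch 1, edgeR called 0 of 9 genes and 0 had an unadjusted p under 0.05, against 0% of 18494 genes called and 2.82% at an unadjusted p under 0.05. The log2 fold changes ran from -0.15 for Ccl5 to 0.17 for Ccl2, 5 of them above 0. Within batch 2, edgeR again called 0 of 9 with 0 at an unadjusted p under 0.05, against 0.00557% of 17955 genes called and 8.28% at an unadjusted p under 0.05. There the log2 fold changes ran from -0.25 for Cx3cr1 to 0.05 for Cx3cl1, and 8 of 9 were below 0. DESeq2 called 0 of the 9 in either batch. The HET level of Cx3cr1 in batch 2 was 0.843 times the WT level (95% interval 0.541 to 1.31) and that of Cxcl10 was 0.871 times (0.655 to 1.16). The TMM factors in batch 2 were 0.820 to 0.980 in HET and 0.967 to 1.05 in WT, and their part in these values was not tested.

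HET and WT overlapped for 9 of 9 genes in each batch, as for all but 0.0872% of genes in batch 1 and 0.551% in batch 2. The interaction of genotype with batch, which tests whether the HET effect differed between batches, called 0 of 9 genes in edgeR with 0 at an unadjusted p under 0.05 and 0 in DESeq2. The background was 0% called and 8.2% at an unadjusted p under 0.05. Its log2 values ran from -0.32 to 0.06, and the smallest adjusted p was 0.727. Leaving out the 3 libraries that went against their labels gave 0 calls among the 9 over all mice, in batch 1 and for the interaction.

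**Figure D2:**
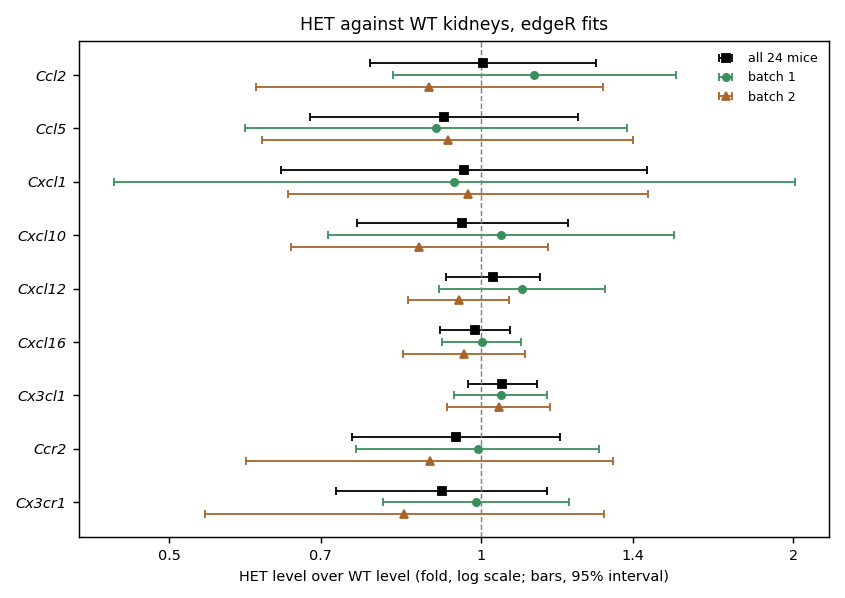
HET level over WT level (x axis, fold on a log scale) of the 9 genes (y axis) from edgeR fits over all 24 mice, in batch 1 and in batch 2, with 95% intervals as bars. Every interval includes 1, and the bars are shortest for Cxcl16, Cxcl12 and Cx3cl1 and longest for Cxcl1 in batch 1.

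Between batches, the 3 abundant ligands were higher in batch 2. Cx3cl1 was at 102 ± 9.72 CPM (SD, n = 12) in batch 1 and 139 ± 14.4 (n = 12) in batch 2, a fold of 1.35 (95% interval 1.253 to 1.46; adjusted p = 5.2e-08, edgeR). Cxcl12 was at 117 ± 17.3 and 146 ± 13.9 CPM, a fold of 1.245 (1.12 to 1.38; adjusted p = 0.000544, edgeR). Cxcl16 was at 37.9 ± 2.94 and 46.4 ± 5.32 CPM, a fold of 1.23 (1.13 to 1.32; adjusted p = 3.05e-05, edgeR). The background was 63.5% of 18339 genes called in either direction and 32.6% called higher, so 3 of 9 higher was near the share of all genes. At an unadjusted p under 0.05 there were 4 of 9 genes, the 3 ligands and Cx3cr1, against a background of 66.3%. The batches did not overlap for Cx3cl1 alone of the 9, against 20.4% of all genes.

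The other 6 genes did not pass the test between batches. Cx3cr1 had a log2 fold change of 0.35 (adjusted p = 0.0686, edgeR) and Cxcl1 one of -0.58 (adjusted p = 0.0767, edgeR). Without HET replicate 1, 9, 10 or 12 or WT replicate 11, in turn, Cx3cr1 passed, with log2 values of 0.38 to 0.41. Cxcl1 passed as lower in batch 2 without HET replicate 13 (-0.68) and without the 3 libraries that went against their labels (-0.76). Depth differed between the batches too, and its part was not tested.

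Co-variation with leukocyte genes was examined over the 24 mice, after the mean of each batch and genotype was taken from log2 CPM. Each gene list was scored as the mean log2 CPM of its tested genes other than the 9, and p-values came from 100000 permutations within batch and genotype, adjusted over the 126 pairs of gene and list. Of these pairs 51 passed an adjusted p of 0.05, 49 with a positive r and 2 with a negative r. No share over all tested genes is given for this test, so the count stands without a background. Of the 51, 17 also had an unadjusted p under 0.05 in each batch alone, 48 had one without the 2 mice farthest from the median of the score, and 39 stayed called whichever library was left out. Without the 3 libraries that went against their labels, 43 of the 51 stayed called. Batch 2 alone gave 40 calls and batch 1 alone gave 2.

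RNA composition moved with these values, and its part in them was examined only by removing the factor. The log2 TMM factor, treated in the same way, had an r of 0.72 with Cx3cr1, 0.65 with Ccl2, 0.64 with Cxcl16, 0.63 with Ccr2, 0.58 with Ccl5, 0.57 with Cx3cl1, 0.32 with Cxcl10, 0.08 with Cxcl12 and 0.03 with Cxcl1. Log2 depth had an r of -0.17 to 0.23 with the 9 genes. After the TMM factor was removed by regression from both sides, 19 of the 51 pairs stayed called and 20 pairs passed in all. The pairs described next are those with the highest r for each gene, and each is given with its value after that step.

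The receptors followed the macrophage list, led by Csf1r at a mean of 61.5 CPM and Lyz2 at 55.4. Cx3cr1 had r = 0.89 (permutation p = 1e-05, the smallest that 100000 permutations give; adjusted p = 0.00021) and rho = 0.93 (permutation p = 1e-05, adjusted 0.000315). Its r was 0.94 in batch 1, 0.89 in batch 2, 0.89 without the 2 farthest mice and 0.77 with the TMM factor removed. Ccr2 had r = 0.84 (permutation p = 1e-05, adjusted 0.00021) and rho = 0.86 (permutation p = 1e-05, adjusted 0.000315). Its r was 0.83 in batch 1, 0.85 in batch 2, 0.84 without the 2 farthest mice and 0.72 with the TMM factor removed. Both receptors were thus high in the mice with high macrophage scores, in each batch.

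Cxcl16 followed the same list, with r = 0.84 (permutation p = 1e-05, adjusted 0.00021) and rho = 0.83 (permutation p = 2e-05, adjusted 0.00042). Its r was 0.66 in batch 1, 0.93 in batch 2, 0.77 without the 2 farthest mice and 0.71 with the TMM factor removed. Cxcl16 also followed the interstitial matrix list, led by Col3a1 and Col1a2, with r = 0.82, or 0.74 with the TMM factor removed. Its r with the tubular injury list, led by Spp1 and Clu, was 0.75, or 0.58 with the TMM factor removed. Neither list was particular to Cxcl16: Ccr2, Cx3cr1, Ccl2 and Cx3cl1 were called with both. With 1 library left out, r with the matrix list was 0.74 to 0.82 for Ccr2 and 0.72 to 0.80 for Cx3cr1. Ccl2 with matrix genes lost its call without HET replicate 10 (permutation, adjusted p = 0.0629). Cx3cl1 with tubular injury genes lost its call in most of the runs with 1 library left out. Its r fell to 0.42 without HET replicate 1 (permutation, adjusted p = 0.107).

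Ccl2 had its highest r with the NF-kappaB response. It was 0.87 (permutation p = 1e-05, adjusted 0.00021) and its rho 0.92 (permutation p = 1e-05, adjusted 0.000315). The r was 0.89 in each batch, 0.86 without the 2 farthest mice and 0.86 with the TMM factor removed. That list was led by Vcam1 and Tnfaip2, and Vcam1 is also in the tubular injury list. The r of Ccl2 with the macrophage list was 0.66, but 0.30 in batch 1 and 0.87 in batch 2, and 0.33 with the TMM factor removed, where it was no longer called. The difference between these lists was not tested.

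Cxcl10 also followed the NF-kappaB list, with r = 0.69 (permutation p = 0.00194, adjusted 0.00843) and rho = 0.73 (permutation p = 0.00082, adjusted 0.0047). Its r was 0.59 in batch 1, 0.83 in batch 2, 0.63 without the 2 farthest mice and 0.64 with the TMM factor removed. Of the 4 list calls of Cxcl10, 0 had an unadjusted permutation p under 0.05 in both batches taken alone. With the interferon response, which includes Irgm1, Cxcl10 had r = 0.60 (permutation p = 0.00354, adjusted 0.0135), which was 0.42 in batch 1 and 0.83 in batch 2. With the TMM factor removed it was 0.53 and no longer called (permutation, adjusted p = 0.0554).

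Cxcl1 was called with none of the 7 leukocyte lists, where its r ran from -0.0045 with B and plasma cell genes to 0.52 with neutrophil genes. It had r = 0.68 with the immediate early genes (permutation p = 0.0027, adjusted 0.011) and rho = 0.77 (permutation p = 0.00039, adjusted 0.00289). That list, led by Egr1 and Dusp1, holds genes that respond within minutes to stress and stimulation. Its r was 0.75 in batch 1, 0.50 in batch 2, 0.78 without the 2 farthest mice and 0.71 with the TMM factor removed. The 3 mice highest in Cxcl1 had immediate early scores of 5.74 (HET replicate 5), 4.72 (HET replicate 4) and 3.75 (WT replicate 5) in log2 CPM. WT replicate 6, with a score of 4.36, had 2.24 CPM of Cxcl1, and HET replicate 12, with a score of 4.01, had 1.77 CPM. Cxcl1 with the NF-kappaB list had r = 0.56 (permutation p = 0.00819, adjusted 0.0245) and rho = 0.59 (permutation p = 0.00582, adjusted 0.0167). Its r was 0.57 in batch 1, 0.56 in batch 2, 0.48 without the 2 farthest mice and 0.60 with the TMM factor removed. The call was lost without HET replicate 5 (permutation, adjusted p = 0.063), HET replicate 13 (0.0725) or WT replicate 7 (0.0554), and without the 3 libraries that went against their labels (r = 0.48, adjusted p = 0.0752). With the neutrophil list, of which 5 of 12 genes were tested, the r of Cxcl1 was 0.52 and was not called (permutation, adjusted p = 0.0688). Of the 2 list calls of Cxcl1, 0 had an unadjusted permutation p under 0.05 in both batches taken alone.

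Ccl5 followed the T and NK cell list, led by Lck at 1.44 CPM and Cd4 at 1.35. Its r was 0.76 (permutation p = 7e-05, adjusted 0.000802) and its rho 0.76 (permutation p = 0.00015, adjusted 0.00145). The r was 0.72 in batch 1, 0.81 in batch 2, 0.69 without the 2 farthest mice and 0.67 with the TMM factor removed. Both leading genes, like Ccl5 itself, rested on few counts. Of the 22 genes fixed for the list, 16 were tested. NK cell genes were mostly among those not tested, so the score is chiefly one of T cell genes.

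Cx3cl1 had its highest r with the interferon response, 0.74 (permutation p = 0.00016, adjusted 0.00155), with rho = 0.71 (permutation p = 0.00048, adjusted 0.00332). The r was 0.59 in batch 1, 0.86 in batch 2, 0.63 without the 2 farthest mice and 0.61 with the TMM factor removed. Cxcl12 had its highest r with the endothelial list, led by Ptprb and Eng, 0.70 (permutation p = 0.00159, adjusted 0.00771), with rho = 0.63 (permutation p = 0.0034, adjusted 0.0107). The r was 0.84 in batch 1, 0.40 in batch 2, 0.61 without the 2 farthest mice and 0.71 with the TMM factor removed. In batch 2 alone that r had an unadjusted permutation p of 0.223.

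By list, 7 of the 9 genes were called with T and NK cell genes, 6 with pan-leukocyte genes (led by Lcp1 and Ptprc), 6 with macrophage genes and 6 with dendritic cell genes (led by Irf8 and Zbtb46). Of the dendritic cell calls, those of Ccl2, Ccl5, Cxcl10 and Cxcl12 were each lost with some single library left out. The same held for Ccl5 with macrophage genes and for Cxcl12 with T and NK cell genes. Some lists outside leukocytes had similar counts: 6 genes with the interferon response, and 5 each with NF-kappaB response, interstitial matrix and tubular injury genes. Ccl2 with the interferon response lost its call without WT replicate 7. Fewer genes were called with the kidney tubule list (2) and with the endothelial and immediate early lists (1 each). The calls were thus not particular to leukocyte lists, and no share over all tested genes stands beside these counts. Called with Ccr2 alone was the B and plasma cell list, led by Ighm and Igkc. That call was lost without HET replicate 9 (permutation, adjusted p = 0.052), HET replicate 13 (0.0647) or WT replicate 1 (0.0624). No gene was called with the neutrophil list, led by Cxcr2 and Csf3r, or with the monocyte list, led by Ace, which kidney tubule cells also express, and Nr4a1, which is also in the immediate early list. The 2 negative calls were Ccr2 (r = -0.65) and Cx3cr1 (r = -0.53) with the kidney tubule list, led by Lrp2 and Slc34a1. On log2(TPM + 1) these were 0.21 and 0.42, so their direction depended on the scale.

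**Figure D3:**
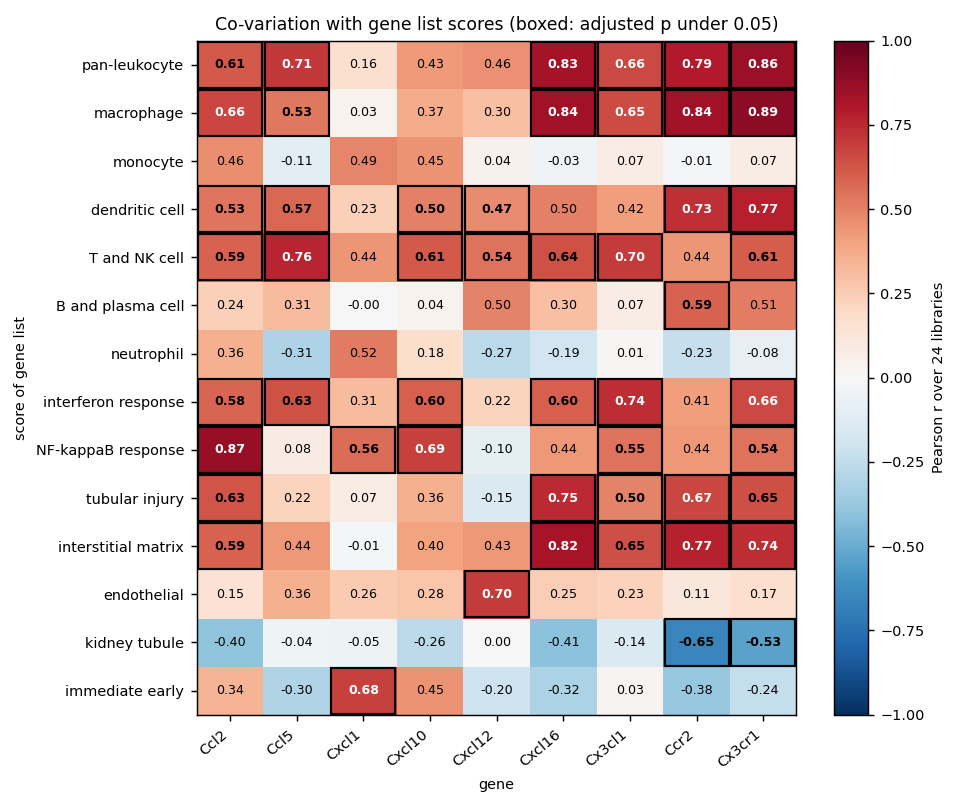
Pearson r (colour and printed value) between each of the 9 genes (x axis) and the score of each gene list (y axis) over 24 mice, after batch and genotype means were removed. Boxes mark an adjusted permutation p under 0.05. The highest values are for Cx3cr1, Ccr2 and Cxcl16 with macrophage and pan-leukocyte genes and for Ccl2 with the NF-kappaB response.

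**Figure D4:**
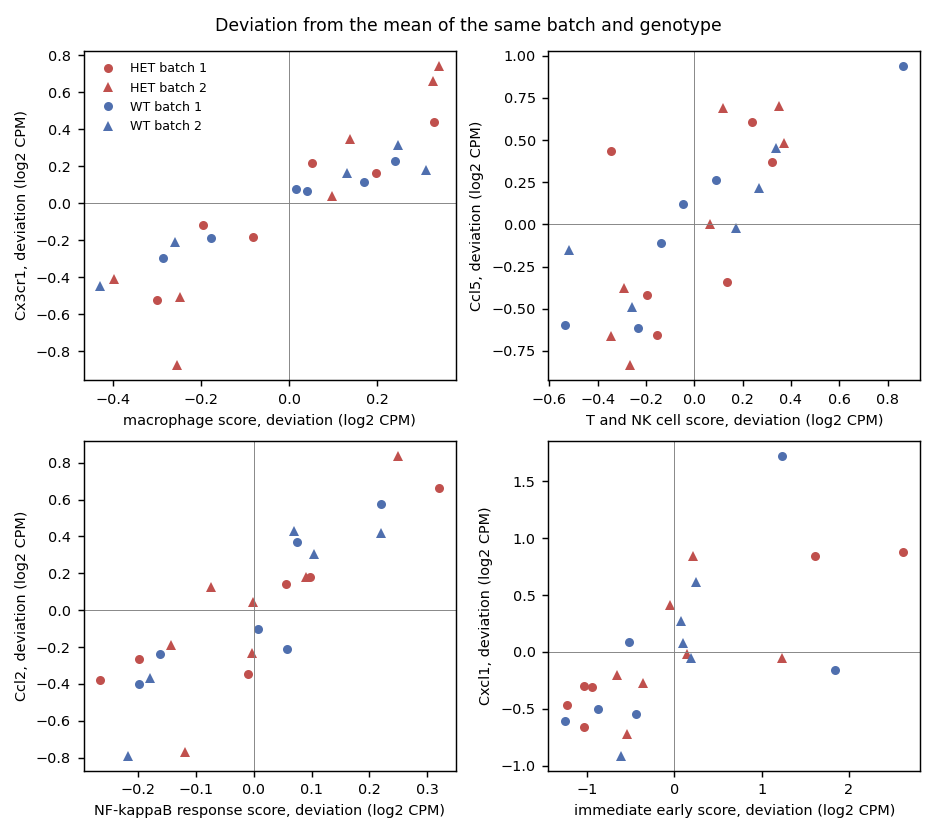
Each point is 1 mouse, as the deviation of log2 CPM from the mean of its batch and genotype, for a list score (x axis) and a gene (y axis). The panels show Cx3cr1 with macrophage, Ccl5 with T and NK cell, Ccl2 with NF-kappaB response and Cxcl1 with immediate early genes, where r was 0.89, 0.76, 0.87 and 0.68.

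Among the 9 genes themselves, 19 of 36 pairs were called, all with a positive r. No share over pairs of all tested genes is given, so this count too stands without a background. Of the 19 pairs, 5 also had an unadjusted p under 0.05 in each batch alone, and 11 stayed called whichever library was left out. With the TMM factor removed, 7 of the 19 stayed called. The highest was the receptor pair Ccr2 and Cx3cr1, with r = 0.91 (permutation p = 1e-05, adjusted 0.00036) and rho = 0.92. Its r was 0.79 in batch 1, 0.96 in batch 2, 0.89 without the 2 farthest mice and 0.85 with the TMM factor removed.

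Cxcl16 had r = 0.75 with Cx3cr1 (0.55 with the TMM factor removed), 0.71 with Ccr2 (0.51), 0.67 with Ccl5 (0.47) and 0.63 with Cx3cl1 (0.42). Of these 4 pairs, the pair with Cx3cr1 stayed called with the TMM factor removed.

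The ligands Ccl2, Cxcl10 and Cxcl1 were called with each other, before and after the TMM factor was removed. Ccl2 with Cxcl10 had r = 0.77 (permutation p = 2e-05, adjusted 0.00036), with 0.82 in batch 1, 0.77 in batch 2 and 0.78 with the TMM factor removed. Cxcl1 with Cxcl10 had r = 0.70 (permutation p = 0.00019, adjusted 0.00171), with 0.79 in batch 1, 0.52 in batch 2 and 0.73 with the TMM factor removed. Ccl2 with Cxcl1 had r = 0.62 (permutation p = 0.0016, adjusted 0.0072), with 0.73 in batch 1, 0.58 in batch 2 and 0.79 with the TMM factor removed. Ccl2 with Cx3cl1 had r = 0.66, or 0.46 and not called with the TMM factor removed. Ccl5 with Cxcl12 had r = 0.61, or 0.70 with the TMM factor removed, with 0.79 in batch 1 and 0.38 in batch 2. Cxcl1 was not called with either receptor, at r = -0.15 with Ccr2 and 0.04 with Cx3cr1.

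**Figure D5:**
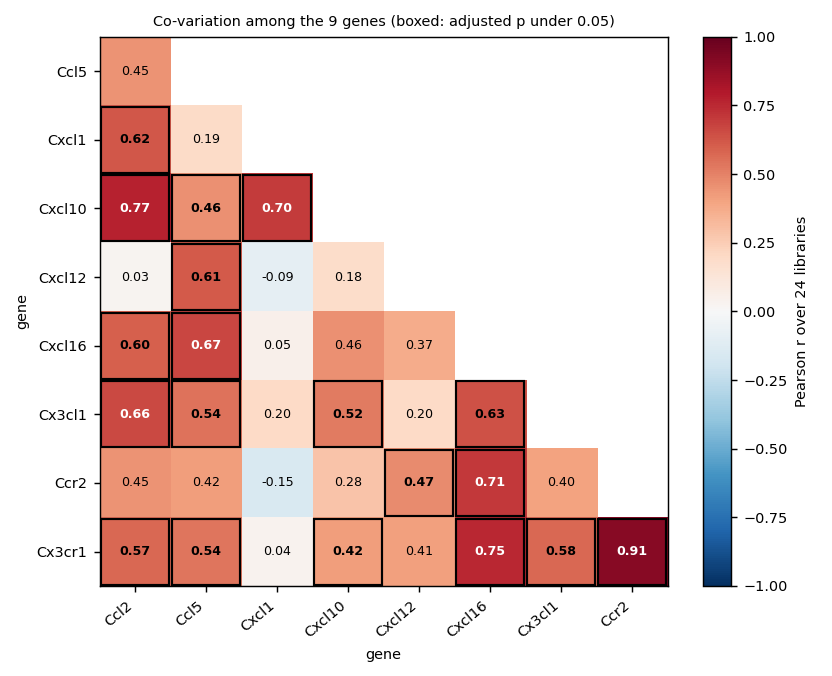
Pearson r (colour and printed value) for all 36 pairs of the 9 genes over 24 mice, after batch and genotype means were removed. Boxes mark an adjusted permutation p under 0.05. Ccr2 with Cx3cr1 is highest at 0.91, and Ccl2, Cxcl10 and Cxcl1 are joined at 0.62 to 0.77.

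Fractalkine and its receptor were called together. Cx3cl1 with Cx3cr1 had r = 0.58 (permutation p = 0.0103, adjusted 0.0264), but 0.28 with the TMM factor removed, where it was no longer called. It was also lost without HET replicate 1 (permutation, adjusted p = 0.055), HET replicate 9 (0.057) or WT replicate 11 (0.0528). Ccl2 with Ccr2 had r = 0.45 and was not called (permutation p = 0.046, adjusted 0.072), with 0.05 in batch 1 and 0.66 in batch 2.

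Of 7 pairs of a ligand with a receptor outside the 9 genes, 2 were called, again without a share over all genes. Among these was Cxcl16 with Cxcr6, with r = 0.56 (permutation p = 0.00569, adjusted 0.0199) and rho = 0.65. Its r was 0.56 in batch 1, 0.58 in batch 2 and 0.52 without the 2 farthest mice. The r was 0.33 and not called with the TMM factor removed, and the call was lost without WT replicate 6 (permutation, adjusted p = 0.0706) or WT replicate 11 (0.0517). Cxcl12 had r = -0.36 with Cxcr4 and -0.15 with the scavenging receptor Ackr3, and the latter was -0.67 in batch 1 and 0.41 in batch 2. Also not called were Cxcl10 with Cxcr3, Ccl5 with Ccr1 and Cxcl1 with Cxcr2, at r = 0.35, 0.14 and -0.23.

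The 3 genes most like each of the 9 were taken by Pearson r over the 24 mice, among 15360 tested genes with a mean of at least 1 CPM, as a description. For Cx3cr1 they included Pik3ap1 (0.92) and Pik3cd (0.91), and for Ccr2 they included Cx3cr1 (0.91) and Tubb5 (0.87). For Cxcl16 they were C1ra (0.90), Anxa2 (0.90) and Serping1 (0.89), of which C1ra encodes a protease of the classical complement pathway and Serping1 its inhibitor. For Cxcl12 they were Clec14a (0.87), an endothelial gene, Atp2a3 (0.87) and Tril (0.85). For Cx3cl1 they were Acsbg1 (0.86), Bgn (0.83), which encodes the matrix proteoglycan biglycan, and Tapbp (0.83), which serves antigen loading.

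For Ccl2 the nearest genes were Sting1 (0.85), which encodes a sensor of cytosolic nucleotides, Marcksl1 (0.85) and Gfpt2 (0.80). For Cxcl10 they were Irf1 (0.80) and Ifi47 (0.79), both interferon-induced, and Ccl2 (0.77). For Ccl5 they were Itgal (0.82) and Itgb7 (0.81), which encode leukocyte integrin chains, and Ms4a7 (0.81). For Cxcl1 they were Vmp1 (0.78), Slc20a1 (0.77) and the immediate early gene Dusp1 (0.76). These 3 had an r of 0.93, 0.84 and 0.87 in batch 1 against 0.33, 0.61 and 0.44 in batch 2. For the other 8 genes the r of the neighbours named here was 0.69 to 0.93 in batch 1 and 0.73 to 0.97 in batch 2.

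Of 30 other chemokine ligands and 21 other receptors on fixed lists, 16 ligands and 11 receptors had a single row in the table and passed the filter on low counts. edgeR called 0 of the 16 ligands (6 higher and 10 lower in HET, 1 at an unadjusted p under 0.05) and 0 of the 11 receptors (3 higher, 8 lower, 0 at an unadjusted p under 0.05). The median log2 fold change was -0.05 for the ligands and -0.02 for the receptors, against 0.01 for all genes. Ccl28, a mucosal epithelial chemokine, was the ligand under 0.05, with a log2 fold change of -0.77 (SE 0.26; unadjusted p = 0.00819, adjusted p = 0.997, edgeR). It was -1.21 in batch 1 and -0.35 in batch 2.

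Next by p were Ccl22 at -0.29, Cxcl9 at -0.27, Cxcl2 at -0.36, Cxcr4 at 0.22, Ackr2 at -0.26, Ccr7 at 0.31, Ccl17 at 0.29, Xcr1 at -0.14 and Cxcl11 at 0.21 (log2, HET against WT), none of them called. Those with the highest mean TPM are given by their range over the 24 libraries, which holds both batches and is no order of levels. Among the ligands Cxcl14 ran from 4.19 to 26.4 TPM, Ccl25 from 6.08 to 12.1, Ccl28 from 2.17 to 19.9 and Ccl6 from 1.02 to 7.29. Among the receptors Ackr3, which scavenges Cxcl12, ran from 6.06 to 28.4 TPM, Cxcr4 from 1.13 to 5.59 and Ccrl2 from 0.73 to 4.89.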

How the data were processed

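RNA-seq of whole kidney was deposited by the authors as estimated counts per gene, with TPM and FPKM values in the same table (FPKM was not used here). Per the submitters' processing notes, fastp, STAR and featureCounts were used with GRCm38/mm10. Neither tool versions, nor strandedness, nor the annotation used by the authors are stated in the sources at hand, and 11.8% to 15.4% of the genes of a library had counts that were not whole. Estimated counts were rounded to whole numbers.

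The main test was edgeR 4.0.16 (quasi-likelihood, TMM scaling, robust) in R 4.3.3, after a filter with a minimum count of 10 that left 18339 genes holding 99.9% of counts, with batch as a covariate over all mice. P-values were adjusted by Benjamini-Hochberg over all genes tested, with a threshold of 0.05, and intervals are 95%. Alternatives were DESeq2 1.42.0, its size factors, no filter, no batch term, limma 3.58.1 on log2(TPM + 1), and leaving out each library. Leaving out the 3 libraries that went against their labels, removing the TMM factor and correlating within 1 batch were added after seeing the data. Correlations used log2 CPM with a prior count of 2, and Python 3.11.15 with scipy 1.17.1. Scripts were tested on simulated data.

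The 9 genes, lists and comparisons were chosen with earlier results of these data known. All 9 genes were named. Also named were the 3 genes most like each, and of the other chemokine genes the 10 smallest p-values and the highest TPM. A few genes that this rule would name are not reported here. The lists, with genes tested of genes fixed, were pan-leukocyte (12 of 12), macrophage (19 of 20), monocyte (8 of 10), dendritic cell (9 of 10), T and NK cell (16 of 22), B and plasma cell (9 of 12), neutrophil (5 of 12), interferon response (24 of 24), NF-kappaB response (17 of 18), tubular injury (16 of 16), interstitial matrix (16 of 16), endothelial (13 of 13), kidney tubule (8 of 8) and immediate early genes (9 of 9). Each library is labelled as a separate mouse. The title of HET replicate 8 carries another mouse number than its library name, which was used to match its column. Coordinates are those of GENCODE M21 and promoters those of RefSeq, both on GRCm38. Ccl19, Ccl21a and Ccl27a had more than 1 row and were not used.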

Additional observations from a re-analysis of the deposited data

Results flagged for a closer look

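Within the 36 groups of gene, genotype and batch, 3 mice lay far from the rest of their group, and chance flags about 1 in 20 such groups. Cxcl1 stood at 8.35 CPM in WT replicate 5 of batch 1, against at most 2.67 in the other 5 WT mice. Cxcl12 stood at 112 CPM in HET replicate 9 of batch 2, against at least 140.3 in the other 6 HET mice. Cxcl16 stood at 44.8 CPM in HET replicate 1 of batch 1, against at most 37.8 in the other 5 HET mice.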

How the results depend on the processing

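No paired analysis was possible because the replicate numbers were given in accession order and tie no HET mouse to a WT mouse. The 0 calls among the 9 genes for HET against WT held under every alternative run. Genes called of all tested changed over all mice without the 3 libraries that went against their labels (2, from 0), in batch 1 with no filter (1), DESeq2 (1) or without those libraries (2), and in batch 2 with no filter (3), DESeq2 (27) or 1 library left out (1 to 3, from 1). Between batches, 3 to 4 of the 9 were called with 1 library left out. List correlations called were 81 on log2(TPM + 1), 20 with the TMM factor removed, 2 in batch 1 alone, 40 in batch 2 alone and 43 to 55 with 1 library left out. Pairs among the 9 were 29, 8, 3, 18 and 13 to 21 in the same order. Ligand and receptor pairs were 0 with the TMM factor removed, 0 in each batch alone and 1 to 3 with 1 library left out. The causes were not tested.

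Fold changes near 0 changed sign. With 1 library left out, log2 values ran from -0.091 to 0.068 for Ccl2, -0.17 to 0.23 for Cxcl1, -0.14 to 0.013 for Cxcl10 and -0.011 to 0.066 for Cxcl12 over all mice. In batch 1 they ran from -0.28 to 0.10 for Ccl5, -0.13 to 0.075 for Ccr2, -0.11 to 0.073 for Cx3cr1, -0.29 to 0.52 for Cxcl1, -0.056 to 0.22 for Cxcl10 and -0.051 to 0.027 for Cxcl16. In batch 2 they ran from -0.24 to 0.025 for Ccl5 and -0.24 to 0.13 for Cxcl1. For the interaction they ran from -0.20 to 0.17 for Ccl5, -0.044 to 0.045 for Cx3cl1 and -0.55 to 0.25 for Cxcl1, and between batches from -0.12 to 0.062 for Ccl5. On log2(TPM + 1), Ackr2 was 0.043, Ccl2 -0.055, Cxcl1 0.021 and Cxcl12 -0.0051 over all mice, and Ccr2 and Cx3cr1 with the kidney tubule list were 0.21 and 0.42. With no filter, Ccl2 was -0.0066 and the interaction of Cx3cl1 -0.012, and with no batch term Cxcl16 was 0.0027. Without the 3 libraries that went against their labels, Ccl2 was -0.072 over all mice, Ccr2 0.0097 and Cxcl10 -0.15 in batch 1, and Ccl5 0.018 between batches. Ccl5 had the fewest counts of the 9 genes, 20 to 75 per library, and the part of counting error in its spread was not tested.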
